A study of Mus musculus with 6 samples.

Results

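The 9 genes described here make, remodel or supply cardiolipin, the 4-chain phospholipid of the inner mitochondrial membrane: Tamm41, Pgs1, Ptpmt1, Crls1, Prelid1, Triap1, Taz, Lclat1 and Pld6. They were taken by gene symbol, from the mouse annotation of build GRCm38, out of 49652 genes with a row in the count tables. The rule uses no measured value, but the list of symbols was drawn up with earlier results of these data known. All 9 had a row, and all 9 passed the filter on low counts that left 18832 genes in the test.

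Cardiolipin is made inside the mitochondrion from phosphatidic acid. Phosphatidic acid is carried to the inner membrane, activated to CDP-diacylglycerol, joined to glycerol phosphate, dephosphorylated to phosphatidylglycerol, and joined to a further CDP-diacylglycerol. Tafazzin and other acyltransferases then exchange its fatty acid chains. Cardiolipin binds the dynamin-like GTPase OPA1 and takes part in OPA1-driven fusion of inner membranes.

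RNA was sequenced from muscle stem cells (satellite cells), which lie along muscle fibres and rebuild them after injury, freshly sorted from uninjured mouse hindlimb as positive for integrin alpha 7 and VCAM and negative for Sca1, CD45 and CD31. The KO group (3 libraries) is OPA1-Pax7-CreERT2, Cre positive, in which tamoxifen activates a Cre recombinase made in cells that express Pax7. The WT group (3 libraries) has the same label but is Cre negative. Mice of both groups were 8 to 10 weeks old, were given tamoxifen by gavage on 5 days, and were sampled 3 days afterwards, so tamoxifen is shared, and Cre itself differs between the groups along with Opa1. The labels do not say how many animals a library holds. The p-values set the difference between the groups against the spread between these libraries, which may be in part technical.

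Opa1, the targeted gene (chromosome 16, 29579334 to 29654884, plus strand, GRCm38), had 17.5, 34.4 and 27.1 CPM (read counts scaled to library size) in KO replicates 1 to 3, against 68.2, 31.4 and 68.8 CPM in WT replicates 1 to 3. The groups overlapped, since the library labelled WT replicate 2 lay inside the KO range. It is called the library labelled WT replicate 2 throughout, and it is the middle value wherever 3 WT values are listed. On the log2 scale KO minus WT was -1.09 (SE 0.37), with an unadjusted p of 0.0215 and an adjusted p of 0.99998 in the quasi-likelihood test of edgeR. Counts cover the whole gene, including exons that Cre does not remove.

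Library totals ran from 41410136 to 56606886 counts. The 9 muscle stem cell markers, led by Chodl and Sdc4, summed to 7182 to 9736 CPM in KO and 7849 to 11855 CPM in WT. The 6 leukocyte markers, led by Cd68 and Lyz2, summed to 6.18 to 16.0 CPM in KO and 6.38 to 15.7 CPM in WT, with Ptprc (CD45) at 0 to 0.651 CPM. Transcripts of the other antigens of the negative sort were present in every library. Pecam1 (CD31) had 4.36, 7.60 and 22.5 CPM in KO and 21.0, 17.4 and 5.76 CPM in WT. Ly6a (Sca1) had 4.86, 7.23 and 19.2 CPM in KO and 13.6, 13.5 and 4.62 CPM in WT. Endothelial markers (led by Tek and Pecam1), fibro-adipogenic markers (Dcn and Col1a1) and mature fibre markers (Acta1 and Tnnt3) overlapped between the groups. Tek made up most of the summed endothelial CPM in every library and varied 1.40-fold, from 77.8 to 109 CPM. The other endothelial markers were lower and varied more, from 5.16-fold for Pecam1 to 74.3-fold for Cdh5. The 12 cell cycle genes set libraries of 1 genotype apart, at 927, 161 and 127 CPM summed in KO and 430, 134 and 395 CPM in WT. Mki67, transcribed in cycling cells, had 78.6, 3.18 and 0.652 CPM in KO and 34.3, 1.59 and 38.1 CPM in WT. The most abundant genes of that list varied less, with Mcm6 at 179, 48.7 and 31.2 CPM in KO and 80.4, 32.3 and 71.1 CPM in WT, and Pcna at 141, 61.5 and 50.8 CPM in KO and 77.1, 54.1 and 67.6 CPM in WT. In bulk RNA, fewer cells of a type and less RNA per cell cannot be told apart.

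None of the 9 cardiolipin genes passed the test of KO against WT, and neither did any other gene: edgeR called 0 of 9 members at an adjusted p under 0.05, beside a background of 0% over all 18832 genes. At an unadjusted p under 0.05 there were 0 of 9 members, against 2.09% of all genes. Limma voom called 0 genes and DESeq2 called 20 of all genes, with 0 members by either. Of the 9 log2 fold changes, 3 were positive and 6 negative, with a median of -0.02 and a range from -0.44 to 0.37, and over all genes tested the median was 0.01. The adjusted p was 0.99998 for each member. For Taz, Pgs1, Ptpmt1, Prelid1, Triap1 and Tamm41 the 95% interval held no 2-fold difference in either direction, whereas that of Crls1 reached a 2-fold lower level in KO, that of Lclat1 a 2-fold higher level, and that of Pld6 both.

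**Figure D1:**
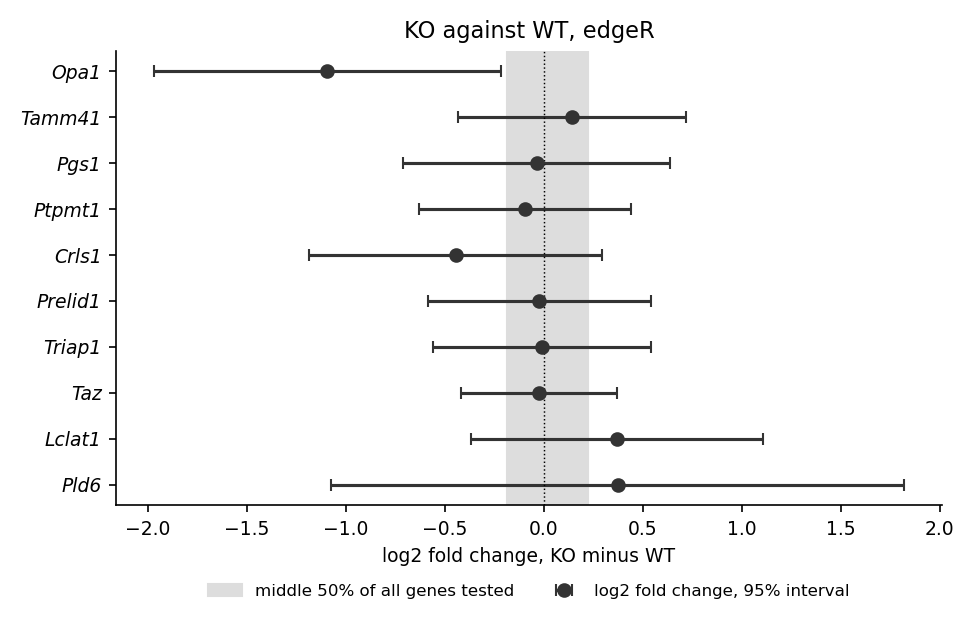
Log2 fold change, KO minus WT (horizontal axis), of Opa1 and the 9 cardiolipin genes by edgeR, with 95% intervals over 3 libraries a group; the grey band holds the middle 50% of all 18832 genes tested. The interval of Opa1 lies below 0 and those of all 9 cardiolipin genes include 0.

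Sequences upstream of the transcription start are shown for the 3 members with the largest fold changes in either direction, Crls1, Pld6 and Lclat1. They are the 250 bases before a RefSeq start on GRCm38.p6, read 5′ to 3′ on the gene's strand, and capitals mark matches to the 7 motifs searched on both strands. Crls1 and Pld6 have 2 windows each, of which the one outside the gene's annotated span is shown. The second Crls1 window holds 0 matches and the other Pld6 window 1, to SP1.
Crls1, chr2:132846416-132846665, plus strand: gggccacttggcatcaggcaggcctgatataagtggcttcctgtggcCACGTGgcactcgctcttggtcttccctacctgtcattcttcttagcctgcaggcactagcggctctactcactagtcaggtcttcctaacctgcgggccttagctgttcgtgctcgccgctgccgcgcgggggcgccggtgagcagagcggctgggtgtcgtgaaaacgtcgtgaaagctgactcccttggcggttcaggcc
Pld6, chr11:59787658-59787907, minus strand: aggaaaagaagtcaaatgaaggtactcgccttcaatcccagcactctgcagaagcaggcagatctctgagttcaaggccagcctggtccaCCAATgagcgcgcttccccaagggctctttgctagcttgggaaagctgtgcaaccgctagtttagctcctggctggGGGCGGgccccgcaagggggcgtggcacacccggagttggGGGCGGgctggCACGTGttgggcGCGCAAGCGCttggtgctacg
Lclat1, chr17:73107735-73107984, plus strand: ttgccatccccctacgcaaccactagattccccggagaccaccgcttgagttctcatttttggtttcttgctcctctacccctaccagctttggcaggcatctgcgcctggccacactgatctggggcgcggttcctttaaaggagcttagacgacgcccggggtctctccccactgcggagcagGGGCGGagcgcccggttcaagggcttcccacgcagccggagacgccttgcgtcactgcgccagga

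The Crls1 window holds 1 E-box (CACGTG), which begins 203 bases before the start. The Pld6 window holds 2 SP1 motifs (GGGCGG), 1 match to CCAAT, an E-box 33 bases and an NRF1 motif 21 bases before the start, and the Lclat1 window 1 SP1 motif at 65 bases. Of the 9 members, 8 have windows in the RefSeq table, 10 windows in all. The windows of Pgs1, Prelid1, Ptpmt1, Taz and Triap1 and the Pld6 window not shown overlap annotated exons of their own gene. The Crls1 window shown overlaps an exon of Gm14104. An E-box was found in 3 of these 10 windows (1 each of Crls1, Pld6 and Prelid1), and in 6.02% of all 32817 windows of the same length. The NRF1 motif was found in 2 of 10 (Pgs1 and Pld6) and in 3.73% of all windows, and the SP1 motif in 6 of 10 and in 32.7% of all. The ETS motif CCGGAAG was found in 1 of 10 (Prelid1, at 2 places) and in 6.9% of all windows, and CCAAT in 1 of 10 and in 33.8%. TATAAA and the YY1 motif were found in 0 of 10 and in 12.4% and 0.603% of all. The members' windows had a median GC content of 61.6%, against 52.4% over all windows, and the shares of all windows are not matched for it. Letter matches are a description of these windows, and the members were not chosen by sequence.

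Synthesis starts with Tamm41, the mitochondrial CDP-diacylglycerol synthase (chromosome 6, 115004381 to 115037876, minus strand). Tamm41 had 42.6, 26.6 and 33.9 CPM in KO, against 38.1, 30.3 and 24.9 CPM in WT. Each group spans most of the other's range, and the highest and the lowest library, KO replicate 1 and WT replicate 3, stand 1.71-fold apart. The means were 34.4 ± 8.04 CPM in KO and 31.1 ± 6.64 CPM in WT (SD, n = 3 each), a log2 fold change of 0.14 (SE 0.24, 95% interval -0.43 to 0.72). Without KO replicate 1 it was -0.040.

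Pgs1, the phosphatidylglycerophosphate synthase of the committed step (chromosome 11, 117986292 to 118024011, plus strand), had 36.6, 33.7 and 22.2 CPM in KO, against 42.7, 27.0 and 25.1 CPM in WT. The 2 highest libraries, WT replicate 1 and KO replicate 1, came from different genotypes, and KO replicate 3 was lowest. KO minus WT was -0.03 on the log2 scale (SE 0.29, interval -0.71 to 0.64), and turned to 0.25 without WT replicate 1 and to 0.15 without KO replicate 3.

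Ptpmt1 encodes the phosphatase that turns phosphatidylglycerophosphate into phosphatidylglycerol (chromosome 2, 90908716 to 90918258, minus strand). Its values were 17.4, 13.6 and 13.8 CPM in KO, against 18.8, 14.2 and 14.7 CPM in WT. In both genotypes 1 library stood above a close pair, and the groups overlapped. The difference was -0.09 on the log2 scale (SE 0.23, interval -0.63 to 0.44), and 0.046 without WT replicate 1. In the annotation, 45.0% of the exon bases of Ptpmt1 also lie in exons of Kbtbd4 on the other strand, so its level is uncertain.

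Crls1, cardiolipin synthase itself, which joins phosphatidylglycerol to CDP-diacylglycerol (chromosome 2, 132846666 to 132866785, plus strand), was the 1 member whose groups did not overlap. It had 6.26, 6.27 and 4.86 CPM in KO (312, 260 and 276 counts), against 6.72, 6.76 and 10.2 CPM in WT (380, 324 and 545 counts). All 3 KO libraries lay below all 3 WT libraries, but the gap between KO replicate 2 and WT replicate 1 was small, and WT replicate 3 alone stood far above the rest. KO averaged 5.80 ± 0.811 CPM and WT 7.89 ± 1.99 CPM (SD, n = 3 each), so KO stood at 73.5% of WT. Its log2 fold change was -0.44 (SE 0.31, interval -1.19 to 0.30), with an unadjusted p of 0.199 in edgeR, so the difference did not pass. Without WT replicate 3 the log2 fold change was -0.22. Groups did not overlap for 6.55% of all genes tested (3.43% with KO above and 3.12% with KO below), and edgeR called none of these. The lowest count, 260 in KO replicate 2, gives a counting error of 6.20%. This is below the spread between libraries, but of similar size to the gap between KO replicate 2 (6.27 CPM) and WT replicate 1 (6.72 CPM).

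**Figure D2:**
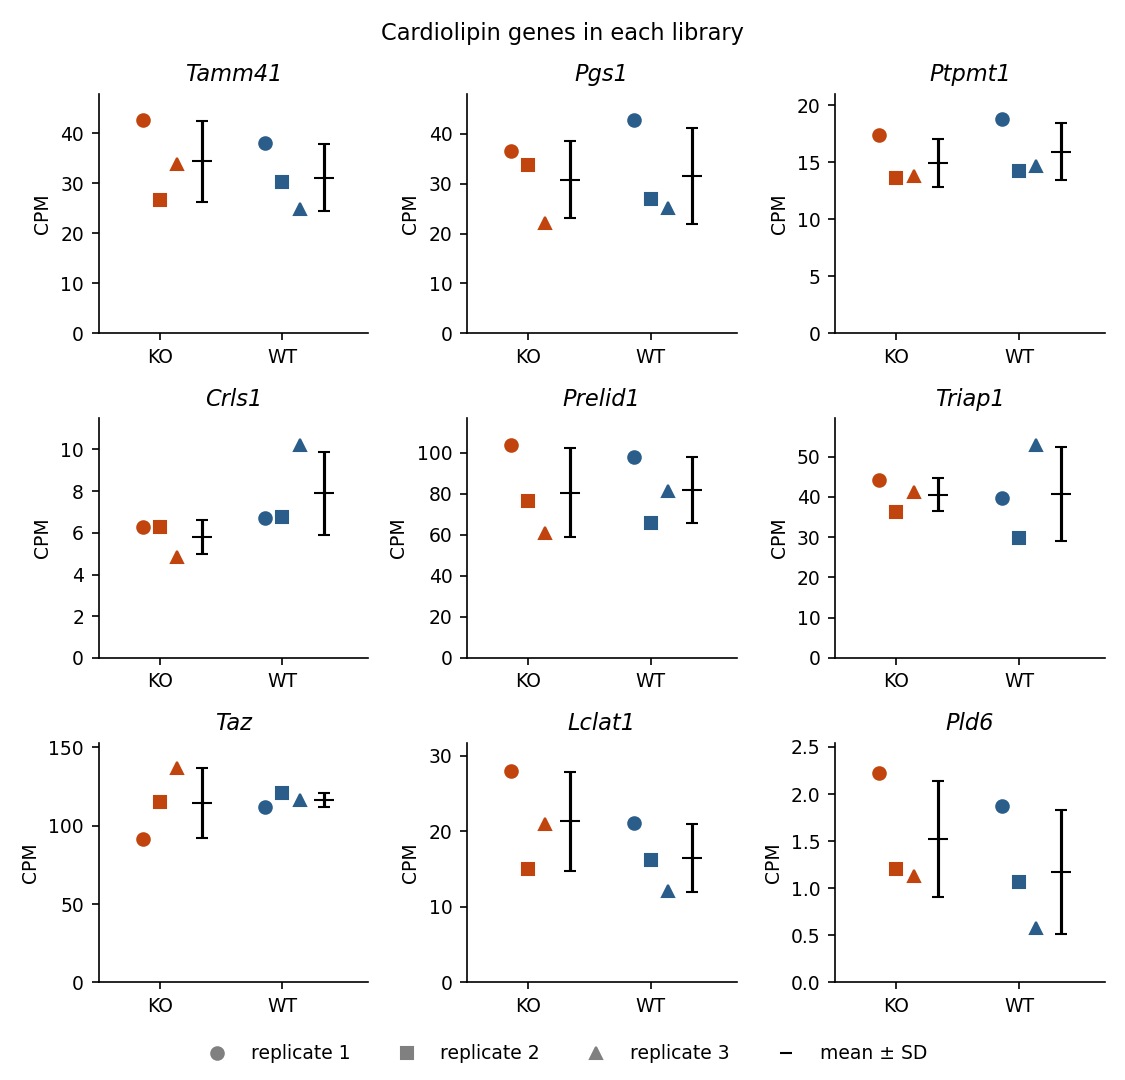
CPM after TMM scaling (vertical axes, each from 0) of the 9 cardiolipin genes in each KO and WT library; marker shapes give the replicate number and black bars the mean ± SD of 3 libraries. KO and WT points intermix in every panel but that of Crls1, where KO lies at 4.86 to 6.27 CPM and WT at 6.72 to 10.2 CPM.

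Prelid1 and Triap1 form the complex that carries phosphatidic acid across the intermembrane space to the inner membrane. Prelid1, the lipid-binding subunit (chromosome 13, 55320500 to 55325272, plus strand), had 104, 76.8 and 61.1 CPM in KO, against 98.0, 65.8 and 81.7 CPM in WT. KO held both the highest and the lowest library, and the means were 80.6 ± 21.8 CPM in KO and 81.8 ± 16.1 CPM in WT (SD, n = 3 each). On the log2 scale this is a difference of -0.02 (SE 0.24, interval -0.58 to 0.54), which became 0.13 if WT replicate 1 was left out and 0.14 if KO replicate 3 was. Of its exon bases, 46.2% lie in exons of Rab24 on the other strand, which limits its level as for Ptpmt1.

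Triap1, the small partner that stabilises PRELI proteins (chromosome 5, 115341225 to 115343569, plus strand), had 44.2, 36.2 and 41.3 CPM in KO, against 39.7, 29.7 and 52.9 CPM in WT. All 3 KO libraries lay between the lowest and the highest WT library. Its fold change was -0.01 on the log2 scale (SE 0.23, interval -0.56 to 0.54) and turned to 0.22 without WT replicate 3. Triap1 is also known as a p53 target. Beside it, Cdkn1a and Mdm2, the p53 targets p21 and the ubiquitin ligase of p53, had log2 fold changes of 0.68 (SE 0.37) and 0.28 (SE 0.14), neither of which passed. Cdkn1a had 206, 208 and 168 CPM in KO and 66.3, 101 and 196 CPM in WT. Mdm2 had 82.3, 71.3 and 77.3 CPM in KO and 59.7, 71.6 and 58.6 CPM in WT, and the groups overlapped for both genes. These last genes were chosen with their values known.

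Remodelling is carried out by Taz and Lclat1. Taz encodes tafazzin, the transacylase that exchanges cardiolipin's chains and is mutated in Barth syndrome in humans (chromosome X, 74281912 to 74290151, plus strand). It had 91.6, 115 and 136 CPM in KO, against 112, 121 and 116 CPM in WT. The WT libraries lay close together, inside the wider KO range, with SDs of 22.4 CPM around a mean of 114 CPM in KO and 4.55 CPM around 116 CPM in WT (n = 3 each). The difference between these spreads was not tested. KO minus WT was -0.02 on the log2 scale (SE 0.17, interval -0.42 to 0.37), the narrowest interval of the 9, equal to a KO level of 0.749 to 1.29 times that of WT. It turned to 0.11 without KO replicate 1 and to 0.004 without the library labelled WT replicate 2.

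Lclat1, an acyltransferase that reacylates lysocardiolipin (chromosome 17, 73107985 to 73243368, plus strand), had 28.0, 14.9 and 21.0 CPM in KO, against 21.1, 16.2 and 12.1 CPM in WT. The groups overlapped, although KO replicate 1 was the highest and WT replicate 3 the lowest of the 6 libraries, 2.31-fold apart. The means were 21.3 ± 6.54 CPM in KO and 16.5 ± 4.49 CPM in WT (SD, n = 3 each). The log2 fold change of 0.37 (SE 0.31, interval -0.37 to 1.11) did not pass, at an unadjusted p of 0.273 in edgeR, and was 0.13 without KO replicate 1.

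Pld6, mitochondrial phospholipase D, cleaves cardiolipin to phosphatidic acid on the outer membrane and is also known for its part in piRNA production in germ cells (chromosome 11, 59783897 to 59787645, minus strand). It was the least abundant member, with 2.23, 1.21 and 1.13 CPM in KO (111, 50 and 64 counts), against 1.87, 1.06 and 0.580 CPM in WT (106, 51 and 31 counts). The groups overlapped and the libraries ranged over 3.84-fold, more than for any other member. At 31 counts the counting error alone is 18.0%. The log2 fold change of 0.37 (SE 0.61) had an interval from -1.07 to 1.82, so neither a lower nor a higher level of Pld6 in KO was detectable at this depth and spread, and it was -0.0079 without KO replicate 1.

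Levels of different genes were compared as CPM per kilobase of the longest protein-coding transcript (for Ptpmt1, which has none in the annotation used, the longest transcript). On this scale Taz was the most abundant at 62.3 ± 7.83 (SD over 6 libraries) and Pld6 the least at 1.42 ± 0.631. Between them came Triap1 at 37.4, Prelid1 at 30.7, Tamm41 at 28.0, Pgs1 at 10.9, Ptpmt1 at 4.85, Lclat1 at 4.23 and Crls1 at 3.56. Thus the cardiolipin synthase transcript ranked 8 of 9. Ranges over the 6 libraries did not overlap between Taz and Triap1, Tamm41 and Pgs1, Pgs1 and Ptpmt1, or Crls1 and Pld6. The other neighbours in this order overlapped: Triap1 was above Prelid1 in 5 of 6 libraries, Prelid1 above Tamm41 in 4, Ptpmt1 above Lclat1 in 4, and Lclat1 above Crls1 in 5. With all annotated exon bases as the length in place of 1 transcript, Taz stood at 21.5 and ranked 3, below Triap1 at 37.4 and Prelid1 at 29.8. Tamm41 then stood at 6.20, close to Pgs1 at 5.85, and Pld6 stood at 0.766. The first place of Taz and the gap between Tamm41 and Pgs1 therefore depend on the length used. The places of Prelid1 and Ptpmt1 are also uncertain. Of their exon bases, 46.2% and 45.0% lie in exons of Rab24 and Kbtbd4, where reads may be uncounted.

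**Figure D3:**
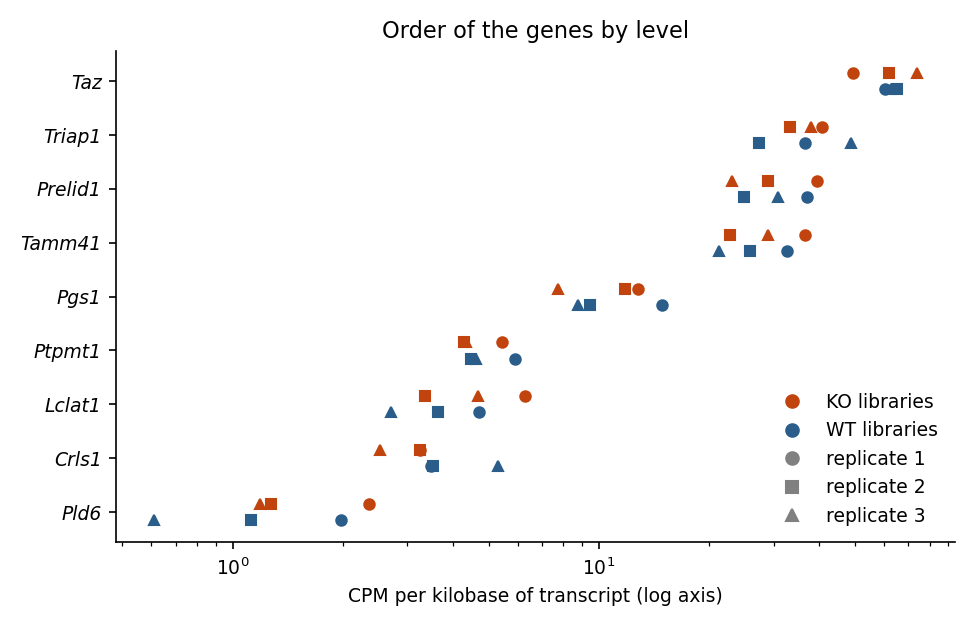
CPM per kilobase of transcript on a log axis for the 9 genes, highest at the top, with KO libraries above WT libraries in each row and marker shapes for the replicate number. Taz averages 62.3 and Pld6 1.42, and KO and WT points overlap in every row but that of Crls1.

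Variation between libraries crossed genotype. KO replicate 1 and WT replicate 1 were the 2 highest libraries for 6 of the 9 members (Pgs1, Ptpmt1, Pld6, Prelid1, Tamm41 and Lclat1), where this held for 14.2% of all genes tested. For Taz they were the 2 lowest, as for 12.3% of all genes. Crls1 and Triap1 did not follow, with WT replicate 3 the highest library for both. This grouping was seen in the values first, so it is a description. The mean log2 CPM over the 9 members was 4.67, 4.31 and 4.29 in KO and 4.64, 4.26 and 4.26 in WT.

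Several features of the libraries moved with it, some of them only in part. Muscle stem cell markers (9 genes) summed to 7182, 9250 and 9736 CPM in KO and 7849, 9201 and 11855 CPM in WT. Replicate 1 had the lowest of these sums in both groups. Not all 9 followed: Myf5, Sdc4, Chodl and Spry1 were lowest in replicate 1 of both groups, and Pax7, Vcam1, Itga7, Calcr and Cd34 were not. Itga7 had 215, 158 and 111 CPM in KO and 227, 90.8 and 121 CPM in WT. Vcam1 had 1407, 1139 and 1159 CPM in KO and 1332, 1032 and 1387 CPM in WT. Chodl was the largest part of the sum, at 2449, 3419 and 3983 CPM in KO and 2506, 3567 and 5869 CPM in WT. Leukocyte markers (6 genes) summed to 6.18, 15.1 and 16.0 CPM in KO and 6.38, 15.7 and 6.77 CPM in WT. Reads without a feature made up 11.6% in KO replicate 1 and 11.2% in WT replicate 1, and 14.6% to 17.0% in the other 4 libraries. Smooth muscle and pericyte markers (6 genes) summed to 1002, 695 and 672 CPM in KO and 1250, 694 and 727 CPM in WT. Acta2 made up much of that sum, with 740, 260 and 286 CPM in KO and 981, 313 and 504 CPM in WT. Notch3 had 211, 297 and 217 CPM in KO and 193, 198 and 146 CPM in WT, and so was not highest in replicate 1 of either group. Rgs5 was lowest in replicate 1 of both groups, at 39.4, 110 and 142 CPM in KO and 56.1, 144 and 65.6 CPM in WT. Erythroid markers (5 genes, led by Hbb-bs and Hba-a1) summed to 257, 33.0 and 214 CPM in KO and 422, 99.1 and 198 CPM in WT. The Y-linked gene Ddx3y was at 0.141 and 0.0354 CPM in KO replicate 1 and WT replicate 1 and at 22.9 to 226 CPM elsewhere. Xist, expressed in female cells, was at 0.0209 CPM in the library labelled WT replicate 2 and at 244 to 508 CPM in the others. By these genes the libraries differed in sex. KO replicates 2 and 3 and WT replicate 3 held both transcripts, as a mix of female and male cells would, and such a mix needs more than 1 animal. Cell cycle genes, given above, were high in these libraries and in WT replicate 3. The part of each in the members' values was not tested.

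**Figure D4:**
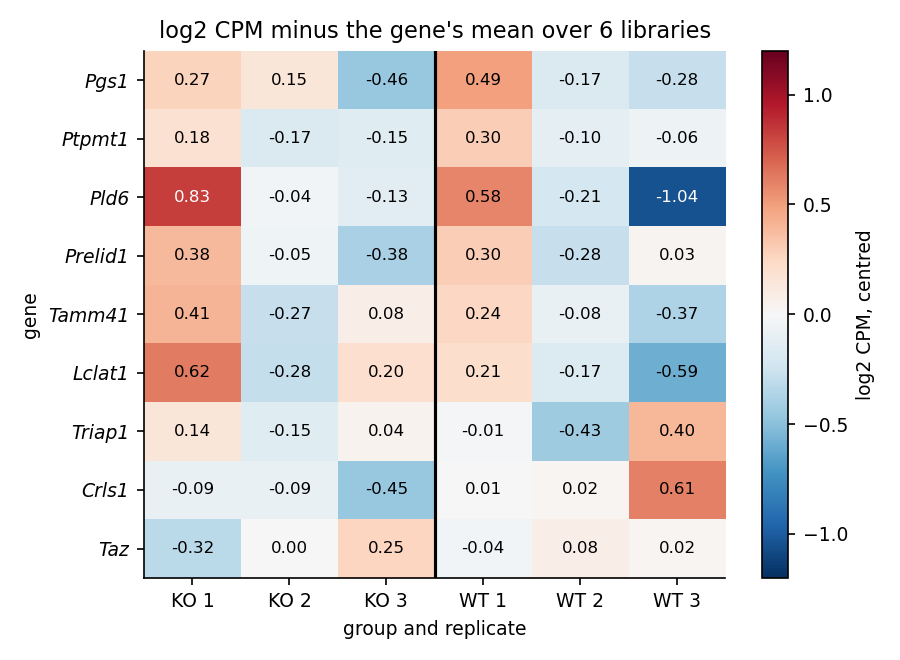
Log2 CPM of each cardiolipin gene (rows) minus its own mean over the 6 libraries (columns, KO left and WT right of the line); red is above and blue below the mean. Columns KO 1 and WT 1 are positive for the first 6 rows, from 0.18 to 0.83, and Taz in the last row is negative in both.

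Within the groups, the SD of log2 CPM ranged from 0.21 for Taz and Ptpmt1 to 0.69 for Pld6, with a median of 0.32 over the members, against 0.42 over all genes tested. The profile most like that of Crls1 over the 6 libraries was that of Tpmt, with a root mean square difference of 0.0387 in centred log2 CPM, followed by Siae (0.0906) and Nrep (0.0956). The median over 9889 genes was 0.391. For Taz these genes were Ankrd50 (0.0384), Phkg2 (0.0420) and Mau2 (0.0423), against a median of 0.308. These are given as values only.

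Of 40 genes in 5 related lists 38 were tested, 0 were called higher and 0 lower by edgeR (background 0%), 1 had an unadjusted p under 0.05 (background 2.09%), and 16 had positive and 22 negative log2 fold changes with a median of -0.02. Groups did not overlap for 2 of the 38 genes tested, Agpat3 and Serac1, where this held for 6.55% of all genes tested. Cds1 was too low to be tested and Them5 had no count in any library.

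Supply of phosphatidic acid and CDP-diacylglycerol (15 genes, 14 tested) had 6 positive and 8 negative members, with a median of -0.02. Agpat3, an acyltransferase that makes phosphatidic acid, was the 1 gene with a small unadjusted p. It had 23.4, 31.0 and 22.6 CPM in KO, against 37.1, 33.3 and 45.4 CPM in WT, with all KO libraries below all WT libraries. Its log2 fold change was -0.59 (SE 0.20), with an unadjusted p of 0.0240 and an adjusted p of 0.99998 in edgeR. Cds2, the CDP-diacylglycerol synthase of the endoplasmic reticulum, had 47.7, 59.0 and 53.6 CPM in KO, against 51.4, 39.7 and 35.8 CPM in WT, and overlapped (log2 fold change 0.34, SE 0.19).

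Among 6 lipid transfer genes the median was -0.01, with 3 positive and 3 negative. Prelid3b, a Prelid1 relative that carries phosphatidylserine with Triap1, had 122, 62.4 and 57.7 CPM in KO, against 106, 75.2 and 71.3 CPM in WT, so KO replicate 1 and WT replicate 1 were again highest. Plscr3, a scramblase, and Prelid2 had log2 fold changes of 0.09 (SE 0.20) and -0.29 (SE 0.92). Among 6 turnover genes (5 tested, 2 positive and 3 negative, median -0.01), Serac1, which remodels phosphatidylglycerol, had 6.22, 6.49 and 8.45 CPM in KO, against 4.84, 3.72 and 5.76 CPM in WT. The KO libraries all lay above the WT libraries, but the log2 fold change of 0.56 (SE 0.32) did not pass, and Pnpla8, a mitochondrial phospholipase, had -0.14 (SE 0.17).

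Phosphatidylserine and phosphatidylethanolamine synthesis (7 genes, 4 positive and 3 negative, median 0.004) included Pisd, the mitochondrial decarboxylase, at 0.13 (SE 0.16) and Etnk1, an ethanolamine kinase, at 0.08 (SE 0.17). Inner membrane partners and proteases (6 genes, 1 positive and 5 negative, median -0.02) varied least, from -0.07 to 0.02. Yme1l1, the protease that degrades PRELID1, stood at 239, 254 and 279 CPM in KO, against 214, 281 and 278 CPM in WT. Stoml2, a cardiolipin-binding scaffold protein, had -0.07 (SE 0.17) and Dnajc19, a partner of prohibitins, 0.02 (SE 0.15).

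**Figure D5:**
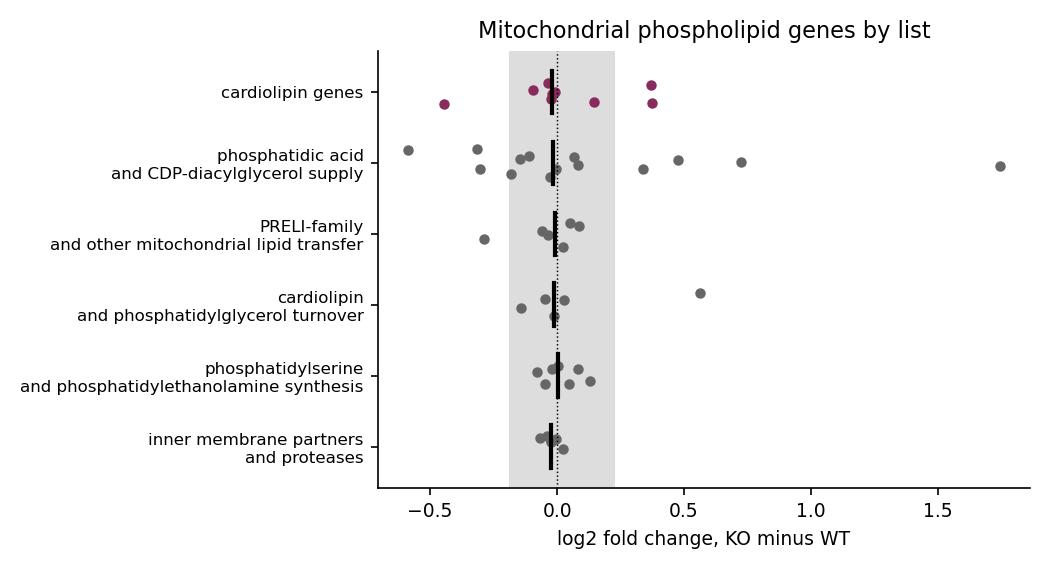
Log2 fold change, KO minus WT (horizontal axis), of the 9 cardiolipin genes and of the tested genes in 5 related lists; each point is a gene (its height within a row is arbitrary), black bars are medians and the grey band holds the middle 50% of all genes tested. The medians lie between -0.02 and 0.004, and Agpat3 is the lowest point at -0.59.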

How the data were processed

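Each library has 1 deposited file of raw counts, whole numbers of reads for every gene. STAR 2.6.0c and HTSeq 0.6.1p2 on build GRCm38 are named in the submitters' processing notes, as are cutadapt 2.5 and Trim Galore 0.5.0. Which annotation release and strand setting were used is not given in the sources used here. Non-coding genes lying wholly inside coding exons had a count for 34 of 167 on the opposite strand and 10 of 61 on the same strand. Reads shared by overlapping genes on either strand may thus be uncounted. The 5 summary rows were left out of totals and tests, and hold no gene: reads without a feature 11.2% to 17.0%, ambiguous 1.21% to 1.42%, not unique 14.8% to 24.6%.

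Symbols, positions and lengths came from GENCODE M21 (GRCm38), which matched 49399 of 49652 rows, and promoter windows from RefSeq (GRCm38.p6). KO and WT were compared with edgeR 4.0.16 by its quasi-likelihood test (R 4.3.3; robust, TMM, no covariate, package filter on low counts), adjusted by Benjamini-Hochberg over 18832 genes and called under 0.05. CPM are after TMM scaling; log2 CPM used a prior count of 2 and fold changes 0.125. SE is the absolute fold change over the square root of F. Limma 3.58.1 and DESeq2 1.42.0 were alternatives, Python 3.11.15 drew figures. Scripts were tested on simulated data. Counting errors cover counting only. Replicate libraries differed by far more than counting noise.

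The list of members (by symbol, with no threshold on values), the other lists and the tests were chosen with earlier results of these data known. The text names the members, Opa1, of each related list the 2 genes with the smallest p, Yme1l1, Prelid3b, the 3 genes nearest in profile to Crls1 and Taz (mean log2 CPM 3 or more), the 2 most abundant markers of each list, and Mki67, Xist and Ddx3y as library checks. Cdkn1a, Mdm2, Ptprc, Ly6a, Cdh5, Rgs5, Itga7, the other muscle stem cell markers named and overlapping genes were added after values were seen.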

Additional observations from a re-analysis of the deposited data

How the results depend on the processing

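Under each of 14 alternatives, 0 of the 9 cardiolipin genes were called and 0 had an unadjusted p under 0.05, and their median log2 fold change lay between -0.14 and 0.14 with a library left out and between -0.05 and -0.0021 otherwise. Over all genes, edgeR and limma voom called 0 and DESeq2 called 20, and the cause was not tested. With the settings of the report 393 genes stood at an unadjusted p under 0.05, against 864 without the filter on low counts, 245 among protein-coding nuclear genes (with Ptpmt1 kept in, more and fewer genes being tested in these fits) and 324 to 818 with a library left out (693, 614 and 818 without WT replicate 1, the library labelled WT replicate 2 and KO replicate 1). Crls1 and Lclat1 kept their direction under all 14, and Opa1 did too, at -1.38 to -0.87 with a library left out. The others turned with a library left out, within -0.17 to 0.11 for Taz, -0.18 to 0.25 for Pgs1, -0.22 to 0.046 for Ptpmt1, -0.0079 to 0.89 for Pld6, -0.25 to 0.14 for Prelid1, -0.19 to 0.22 for Triap1 and -0.040 to 0.32 for Tamm41. Crls1 ranged from -0.55 to -0.22 and Lclat1 from 0.13 to 0.59. Triap1, at -0.01, also turned to 0.024 by limma voom, to 0.026 with the replicate block and to 0.043 with the cell cycle level as covariate. Deviations from the group means correlated across genes at 0.24, 0.11 and -0.07 for replicate numbers 1 to 3. KO replicates 1 and 2 each correlated best with the WT library of the same number. KO replicate 3 correlated best with the library labelled WT replicate 2 (0.21). Whether the replicate numbers pair the libraries is not settled by these values. With the replicate block 515 genes had an unadjusted p under 0.05, 0 genes were called, and the members' median was -0.03. Counting error was at most 18.0% for Pld6 and 6.20% for the other members, below the spread between libraries in each case.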

Other observations

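Ratios between members that act on the same lipid varied across libraries of both genotypes. The log2 ratio of Taz to Lclat1 counts was 1.71, 2.94 and 2.70 in KO replicates 1 to 3, against 2.41, 2.90 and 3.26 in WT, lowest in replicate 1 of each group. That of Taz to Crls1 was 3.87, 4.19 and 4.81 in KO, against 4.06, 4.16 and 3.51 in WT. That of Prelid1 to Triap1, which act as a complex, was 1.24, 1.08 and 0.56 in KO, against 1.30, 1.15 and 0.63 in WT. For this pair of genes, libraries with the same replicate number differed by less than libraries of the same genotype did. These ratios were chosen after the values were seen and none was tested.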
